A study of Mus musculus with 8 samples.

Results

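The genes described here encode the aryl hydrocarbon receptor (AhR), its dimer partner ARNT, the chaperones that hold the free receptor and the feedback inhibitors that its activation induces. They were taken as all probe sets whose platform gene symbol is Ahr, Arnt, Ahrr, Tiparp, Hsp90ab1 or Ptges3, under a current or an earlier name. This gave 5 of the 6 genes, among 12394 genes named on the array, through 10 of its 22690 probe sets: 2 for Ahr, 2 for Arnt, 1 for Ahrr, 3 for Tiparp and 2 that the annotation assigns to both Ptges3 and the pseudogene Ptges3-ps. None of the annotated probe sets carried the symbol Hsp90ab1, so that gene is not analysed here. The signal of the shared probe sets cannot be assigned to one of that pair. Where a gene has several probe sets, they are numbered here from the highest mean level to the lowest.

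The study profiled sorted CD4-negative CD8-negative cells of female C57BL/6 mice aged 6 to 8 weeks on Affymetrix expression arrays, with 2 arrays in each of 4 groups. The groups were thymus emigrants taken from the spleen after TCDD, emigrants after corn oil, thymocytes after TCDD and thymocytes after corn oil. TCDD (2,3,7,8-tetrachlorodibenzo-p-dioxin), a persistent dioxin and strong AhR ligand, was given in corn oil at 10 µg/kg by intraperitoneal injection, the dye FITC was injected into the thymus 5 days later, and cells were sorted 24 h after that. No gene was altered in any group, every thymus received FITC, and the exposure was to the whole animal. Whether the 2 arrays of a group hold RNA of separate mice is not stated, so the p-values reflect the spread of these 8 arrays alone, some or all of which may be technical.

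In the absence of a ligand AhR waits in the cytosol in a complex with HSP90 and its cochaperones, of which p23, the product of Ptges3, is one. A bound ligand sends the receptor to the nucleus, where it pairs with ARNT and binds DNA elements with the core GCGTG. The pair switches on cytochrome P450 genes and also 2 of its own brakes: AHRR, which competes with AhR for ARNT and for DNA, and TIPARP, an ADP-ribosyltransferase that modifies AhR and lowers its activity. The thymus is a classical target of TCDD, and C57BL/6 mice carry a form of the receptor with high affinity for it.

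The RefSeq promoter windows of the feedback genes, 250 bases before to 50 bases after the transcript start on GRCm38.p6, are shown because Ahrr and Tiparp were the members with the highest TCDD differences. Capitals mark the core GCGTG, read on either strand.
Ahrr promoter, chr13:74292282-74292581, minus strand: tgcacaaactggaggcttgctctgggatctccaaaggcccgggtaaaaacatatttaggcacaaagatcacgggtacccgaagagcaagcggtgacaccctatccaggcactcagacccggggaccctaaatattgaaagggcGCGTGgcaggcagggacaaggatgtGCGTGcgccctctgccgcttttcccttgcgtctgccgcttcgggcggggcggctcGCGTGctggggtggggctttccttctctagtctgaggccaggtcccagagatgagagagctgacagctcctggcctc
Tiparp promoter, chr3:65528197-65528496, plus strand: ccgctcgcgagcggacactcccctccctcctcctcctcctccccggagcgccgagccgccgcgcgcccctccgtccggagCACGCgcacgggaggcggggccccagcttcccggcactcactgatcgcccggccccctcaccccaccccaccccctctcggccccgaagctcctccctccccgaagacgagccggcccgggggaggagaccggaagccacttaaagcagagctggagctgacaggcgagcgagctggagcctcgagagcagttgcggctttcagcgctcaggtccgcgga
The Ahrr window held GCGTG 3 times, all on the strand of the gene, and the Tiparp window once, on the other strand. The core was also present in the windows of Arnt (1 match) and Ptges3 (2 matches), and in 32.4% of the 32851 windows of this length in the RefSeq table. No window was available for Ahr or Hsp90ab1, so these genes were not searched. The longer form TNGCGTG, which contains the core, was found in the Ahrr window (1 match) and in 5.1% of all windows. These matches describe the letters of the windows and were not tested against the expression values.

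The deposited values were on the log2 scale, with array medians between 4.81 and 4.91, and precision was limited by having 2 arrays a group. No detection calls were used, so a probe set close to the array medians was not shown to be above background. The T cell marker Cd3e lay between 8.09 and 8.91 in all arrays, and Cd4, whose product was used to exclude cells in the sort, between 4.53 and 5.31. Cd8a, of the other excluded marker, lay at 6.18 and 6.24 in TCDD emigrants, against 4.57 and 5.84 in oil emigrants. In thymocytes it lay at 5.05 and 7.14 under TCDD, against 5.15 and 6.66 under oil. Cd8a was thus above the array medians except in emigrants oil 1, and higher in array 2 of every group. Rag1, the recombinase gene of developing lymphocytes, lay between 9.33 and 10.21 in the thymocytes and between 3.75 and 5.10 in 3 emigrant arrays. In emigrants oil 2 it lay at 9.81, within the thymocyte range. Ptcra, the pre-TCR alpha gene, lay at 7.00 in that array, against 5.08 to 5.35 in the other emigrant arrays and 8.83 to 9.45 in thymocytes. Emigrants TCDD 2 had the lowest summed level of the 11 measured double-negative thymocyte markers, at 64.90, against 70.44 to 80.43 in the other emigrant arrays and 89.68 to 93.48 in thymocytes. The value of 80.43 was that of emigrants oil 2. The Treatment field of emigrants oil 1 names TCDD, at 10 nM, and the protocol text of the TCDD thymocytes names corn oil alone. The groups follow the titles.

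The receptor gene was bright in every group by 1 of its probe sets. Ahr, by probe set 1, lay at 8.04 and 8.53 in TCDD emigrants, against 9.46 and 8.75 in oil emigrants. In thymocytes it lay at 9.24 and 8.34 under TCDD, against 8.98 and 8.40 under oil. The emigrant arrays did not overlap, with both TCDD arrays lower, while the thymocyte arrays did. The mean level over the 8 arrays, 8.72, stood at the 93.8 percentile of all probe sets. The order of the group means was oil emigrants (9.10 ± 0.50), TCDD thymocytes (8.79 ± 0.64), oil thymocytes (8.69 ± 0.41) and TCDD emigrants (8.28 ± 0.34; SD, n = 2 each), and the arrays of neighbours in that order overlapped.

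The TCDD difference of Ahr was -0.82 log2 units in emigrants (SE 0.407, 95% interval -1.81 to 0.16, limma adjusted p = 1), or 1.77-fold lower. In thymocytes it was 0.10 (interval -0.89 to 1.09, limma adjusted p = 1). The test of the difference between these values gave -0.92 (interval -2.32 to 0.47, limma adjusted p = 1), and none of the 3 values passed. Within replicate numbers the emigrant difference was uneven, at -1.42 in number 1 and -0.22 in number 2, and it was -0.47 without emigrants oil 1. The thymocyte value was -0.19 without oil 2 and -0.35 without TCDD 1. Ahr probe set 2, which was designed from the same sequence accession, lay between 4.84 and 5.26 in all arrays, close to the array medians, and its averaged TCDD difference was 0.08 (limma adjusted p = 1). In bulk RNA, fewer cells of a type and less RNA per cell cannot be told apart.

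**Figure D1:**
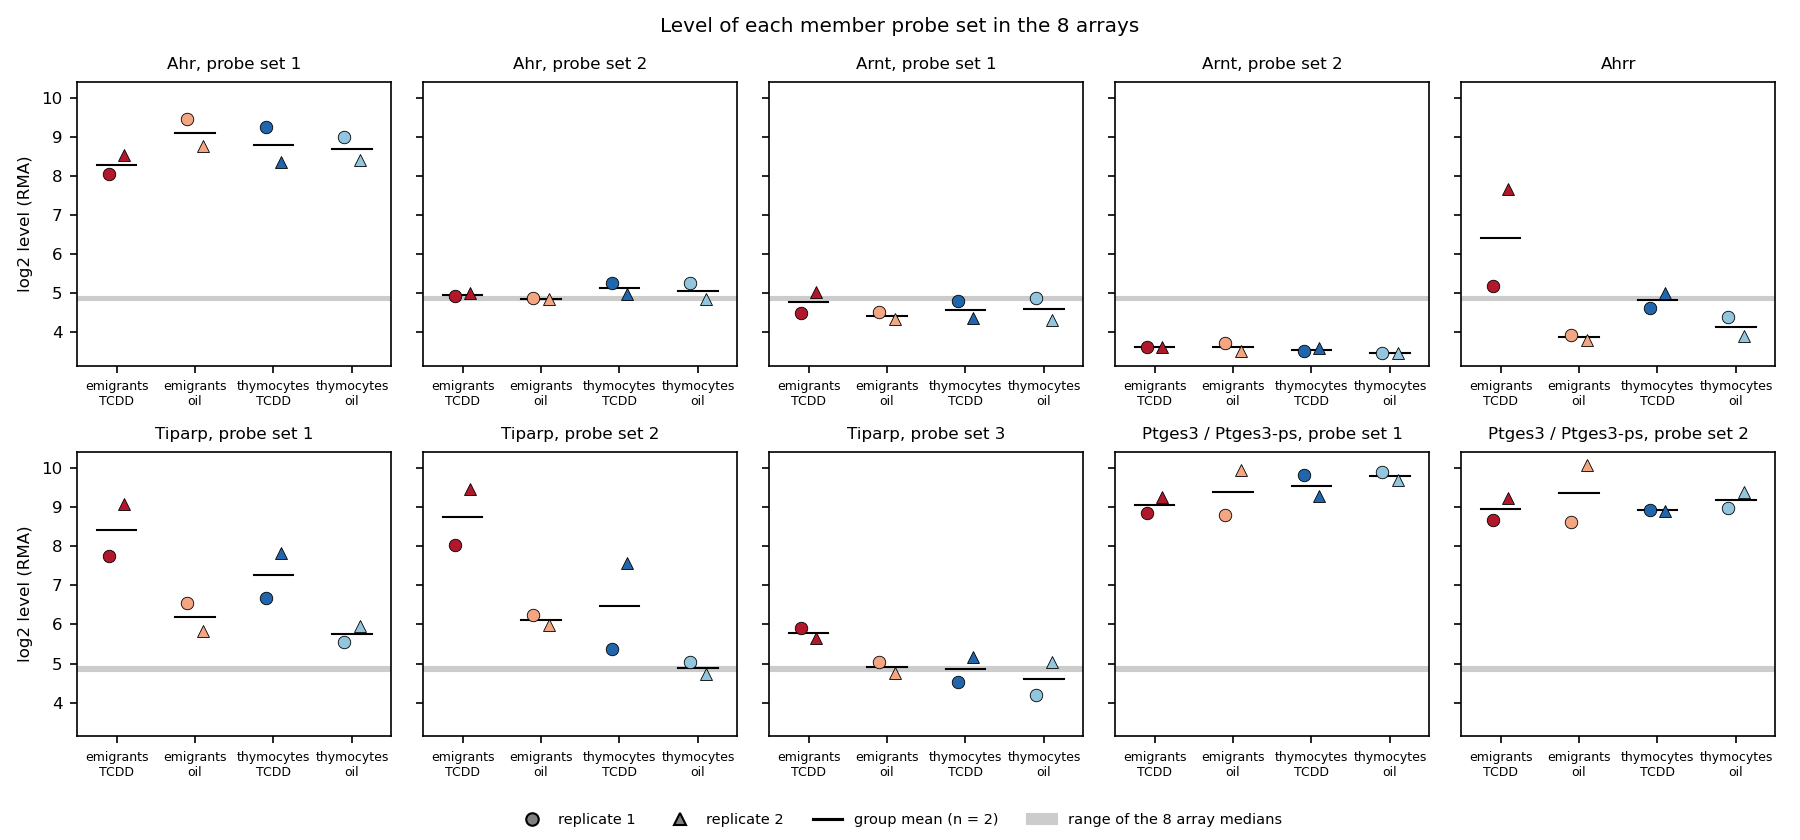
Log2 level (RMA) of the 10 probe sets of the receptor, partner and feedback genes in each of the 8 arrays, by group, with bars at group means (n = 2), circles for replicate 1, triangles for replicate 2 and a grey band for the range of the array medians (4.81 to 4.91). Ahr probe set 1 and the probe sets shared by Ptges3 and Ptges3-ps lay above 8 in every array, Arnt lay near or below the band, and Ahrr and Tiparp probe sets 1 and 2 had both TCDD arrays above both oil arrays in each cell source.

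Both probe sets of the dimer partner averaged below the median of every array. Arnt, by probe set 1, lay at 4.50 and 5.03 in TCDD emigrants, against 4.51 and 4.33 in oil emigrants. In thymocytes it lay at 4.79 and 4.36 under TCDD, against 4.88 and 4.31 under oil. The groups overlapped in both sources, and 2 of the 8 arrays were above their array median. Arnt probe set 2 lay between 3.47 and 3.72 and below the median in every array. Averaged TCDD differences were 0.16 for the first (95% interval -0.32 to 0.65) and 0.04 for the second (-0.18 to 0.27; limma adjusted p = 1 for both). With both probe sets this dim, no fold is given.

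Of the chaperone complex, the probe sets annotated to both Ptges3 and Ptges3-ps were among the brightest on the array, at the 96.4 and 95.3 percentiles of mean level. Probe set 1 of the pair lay at 8.84 and 9.27 in TCDD emigrants, against 8.80 and 9.96 in oil emigrants. In thymocytes it lay at 9.81 and 9.29 under TCDD, against 9.91 and 9.70 under oil. Groups overlapped in both sources. Probe set 2 lay at 8.68 and 9.23 in TCDD emigrants, against 8.62 and 10.08 in oil emigrants, and at 8.94 and 8.89 in TCDD thymocytes, against 8.98 and 9.40 in oil thymocytes. The thymocyte arrays of probe set 2 did not overlap, with TCDD lower by a small step, and the high value of both probe sets in oil emigrants came from oil 2, the array with Rag1 at 9.81. Averaged TCDD differences were -0.29 (95% interval -0.98 to 0.40) and -0.34 (-1.14 to 0.47), both with a limma adjusted p of 1. Without emigrants oil 2 the emigrant differences were 0.25 for probe set 1 and 0.33 for probe set 2, against -0.33 and -0.40 with all arrays.

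The feedback genes were the members with the highest TCDD differences. Tiparp, by probe set 1, lay at 7.74 and 9.09 in TCDD emigrants, against 6.56 and 5.83 in oil emigrants. In thymocytes it lay at 6.68 and 7.83 under TCDD, against 5.55 and 5.96 under oil. Both TCDD arrays exceeded both oil arrays in each source, and TCDD 2 was the higher TCDD array in each. The level was 4.64-fold higher after TCDD in emigrants (log2 difference 2.21, SE 0.569) and 2.82-fold higher in thymocytes (1.50, SE 0.569), each with a limma adjusted p of 1 over all probe sets. Averaged over both sources the difference was 1.86 (95% interval 0.88 to 2.83, limma adjusted p = 1), and 5 of the 22690 probe sets had a higher one.

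The other Tiparp probe sets, designed from the same accession, had differences of the same sign and other sizes. Probe set 2 lay at 8.03 and 9.46 in TCDD emigrants, against 6.23 and 5.98 in oil emigrants, and at 5.36 and 7.57 in TCDD thymocytes, against 5.05 and 4.74 in oil thymocytes. TCDD arrays were again above oil arrays in each source, by a narrow margin for thymocytes TCDD 1. Its level was 6.23-fold higher after TCDD in emigrants (log2 difference 2.64, SE 0.762, limma adjusted p = 1). In thymocytes the difference was 1.57 (SE 0.762, limma adjusted p = 1), with no fold given because the oil levels were near the array medians. Probe set 3 was dimmer, at 5.91 and 5.66 in TCDD emigrants, against 5.05 and 4.76 in oil emigrants, and at 4.53 and 5.17 in TCDD thymocytes, against 4.19 and 5.03 in oil thymocytes. Its arrays separated in emigrants (difference 0.87, SE 0.34, limma adjusted p = 1) and overlapped in thymocytes (0.24, limma adjusted p = 1). Across the 8 arrays the 3 probe sets had Pearson r of 0.94, 0.79 and 0.81 with each other, which is a description of probe sets that share their arrays.

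The thymocyte size of the Tiparp difference rested on few arrays. Without thymocytes TCDD 2 it was 0.92 for probe set 1 and 0.46 for probe set 2, and without thymocytes TCDD 1 it was 2.68 for probe set 2. For probe set 3 it was -0.08 without TCDD 2 and -0.18 without oil 1. In emigrants probe set 1 ranged from 1.54, without TCDD 2, to 2.89, without TCDD 1. Within replicate numbers all 3 probe sets were higher after TCDD in both sources, by 1.17 and 3.25 (emigrants numbers 1 and 2) and by 1.12 and 1.87 (thymocytes numbers 1 and 2) for probe set 1.

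Ahrr, the repressor gene, had 1 probe set. It lay at 5.19 and 7.65 in TCDD emigrants, against 3.93 and 3.81 in oil emigrants. In thymocytes it lay at 4.63 and 5.00 under TCDD, against 4.38 and 3.89 under oil. Both TCDD arrays exceeded both oil arrays in each source, all 4 oil arrays were below their array medians, and emigrants TCDD 2 stood far above every other array. The log2 difference was 2.55 in emigrants (SE 0.726, 95% interval 0.79 to 4.31, limma adjusted p = 1) and 0.68 in thymocytes (interval -1.08 to 2.44, limma adjusted p = 1), and no fold is given because the oil levels were not shown to be above background. The fit uses the same spread for every group, so the thymocyte interval also holds the emigrant spread. The SD was 1.74 in TCDD emigrants and 0.09 in oil emigrants, against 0.27 in TCDD thymocytes and 0.35 in oil thymocytes. Without emigrants TCDD 2 the emigrant difference was 1.32, and without oil 2 the thymocyte one was 0.43. The averaged difference was 1.61 (interval 0.37 to 2.86, limma adjusted p = 1), and 1.00 without emigrants TCDD 2. Without emigrants oil 2, the array with Rag1 at 9.81, the emigrant differences were 2.49 for Ahrr, 1.85 for Tiparp probe set 1 and -1.18 for Ahr probe set 1.

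**Figure D2:**
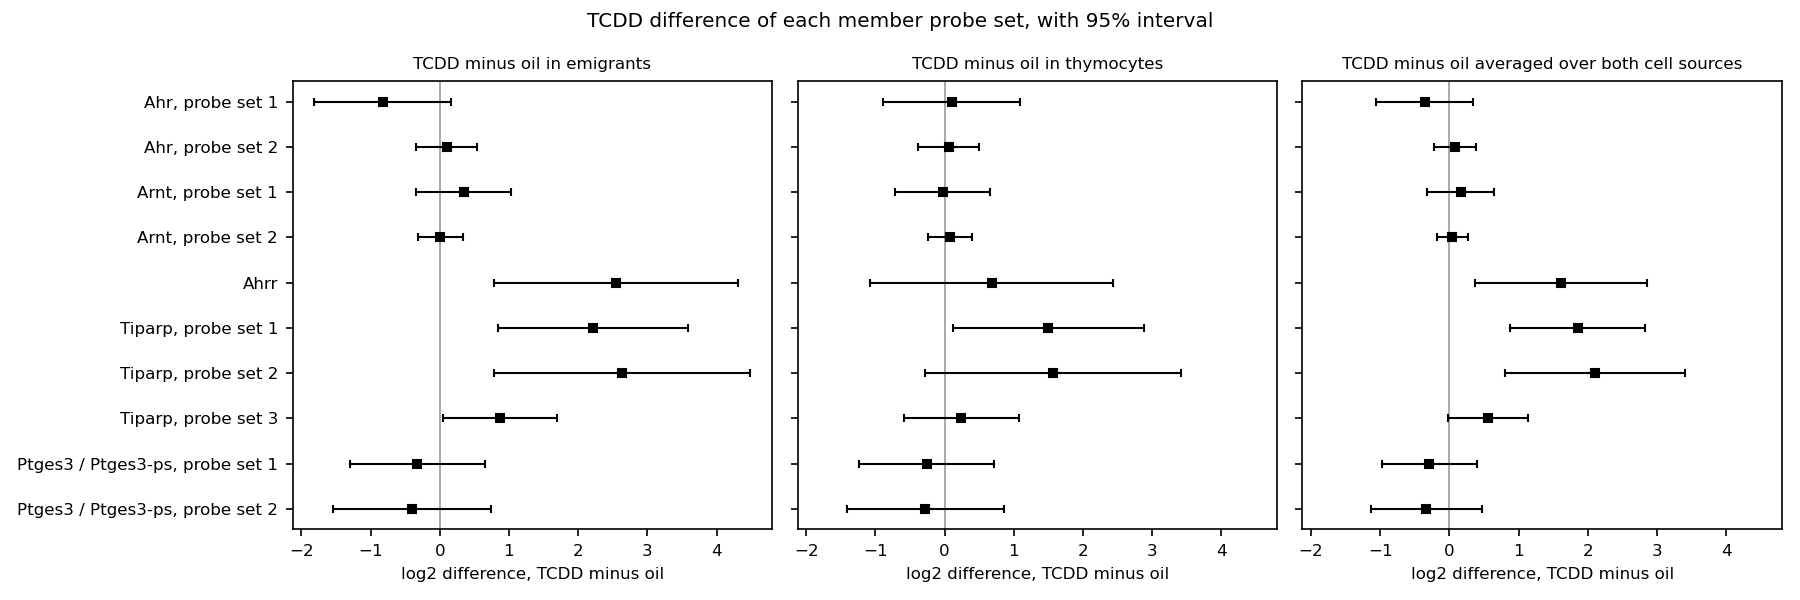
Log2 difference, TCDD minus oil, of each probe set of these genes in emigrants, in thymocytes and averaged over both, with 95% intervals from the limma fit (n = 2 against 2, or 4 against 4 in the average). In the average the intervals of Ahrr and of Tiparp probe sets 1 and 2 lay above 0, with lower ends at 0.37, 0.88 and 0.80, that of Tiparp probe set 3 began at -0.02, and those of the Ahr, Arnt and Ptges3 probe sets spanned 0.

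Over all probe sets no TCDD comparison had a call at an adjusted p under 0.05 (limma, 0 of 22690 in thymocytes, in emigrants and in the average, 0% each). At an unadjusted limma p under 0.05 there were 312, 273 and 285 probe sets, or 1.38%, 1.20% and 1.26%. Of the 10 probe sets described here, 4 were among these in emigrants (Ahrr and the 3 of Tiparp), 1 in thymocytes (Tiparp probe set 1) and 3 in the average (Ahrr and Tiparp probe sets 1 and 2), all with a higher level after TCDD. The share of all probe sets past that unadjusted threshold and higher was 0.502% in emigrants, 0.802% in thymocytes and 0.599% in the average. The TCDD arrays stood entirely above the oil arrays for 5 of the 10 in emigrants, where 13.7% of all probe sets did so, and for 4 in thymocytes, where 9.69% did so. The opposite separation held for 1 in emigrants (Ahr probe set 1, with 10.9% of all probe sets) and 1 in thymocytes (probe set 2 shared by Ptges3 and Ptges3-ps, with 11.0%). Separation upward in both sources held for 3, namely Ahrr and Tiparp probe sets 1 and 2, and for 1.43% of all probe sets, and downward in both for 0, against 1.16%. For single values an exact permutation test of 2 arrays against 2 cannot give a two-sided p below 0.333, and reassigning treatment within both sources cannot go below 0.0556, the value that these 3 reached. The median TCDD difference of the 10 was 0.22 in emigrants and 0.09 in thymocytes, against 0.02 and -0.00 over all probe sets.

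**Figure D3:**
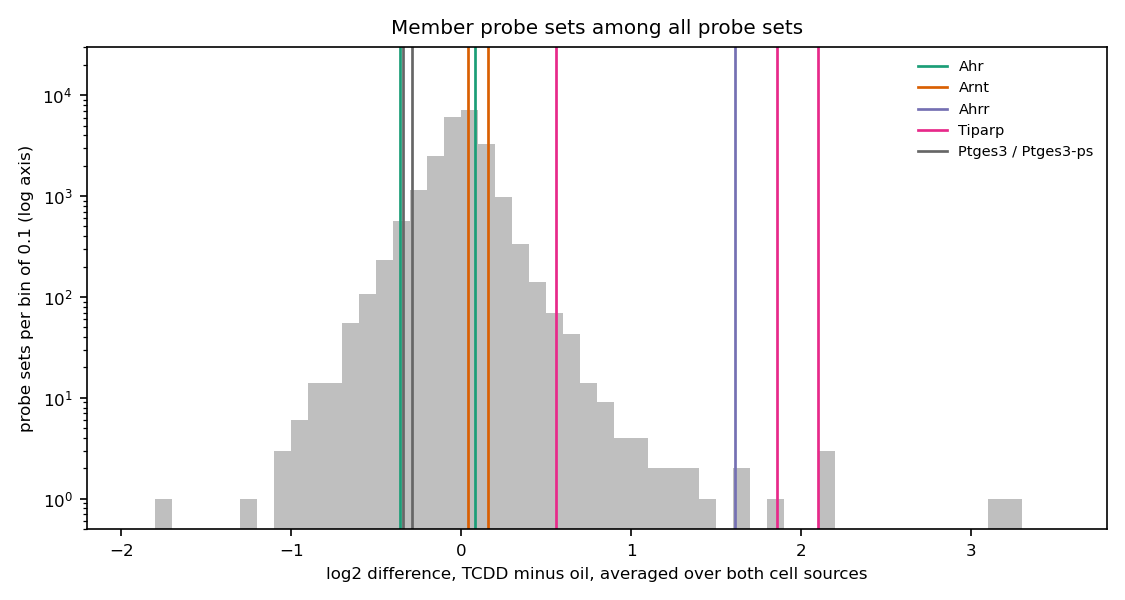
Number of probe sets (log axis) per bin of the log2 difference, TCDD minus oil, averaged over both cell sources, for all 22690 probe sets, with vertical lines at the 10 described here. Ahrr (1.61) and Tiparp probe sets 1 and 2 (1.86 and 2.10) lay at the far right of the distribution, Tiparp probe set 3 at 0.56, and the others between -0.36 and 0.16.

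The TCDD differences of the feedback genes were larger in emigrants than in thymocytes, but the test of that contrast did not pass. The emigrant difference exceeded the thymocyte one by 1.87 for Ahrr (SE 1.03, 95% interval -0.62 to 4.36). For Tiparp it did so by 0.72 in probe set 1 (SE 0.804, interval -1.23 to 2.67), 1.07 in probe set 2 (SE 1.08) and 0.63 in probe set 3 (SE 0.481), each with a limma adjusted p of 1. No probe set passed this test (0 of 22690 at an adjusted p under 0.05, and 290, or 1.28%, at an unadjusted limma p under 0.05). It was 0.64 for Ahrr without emigrants TCDD 2, and without both emigrant arrays numbered 2 it was -0.32 for Tiparp probe set 1. For Tiparp probe set 2 it was -0.04 without thymocytes TCDD 1.

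Set against thymocytes, Tiparp probe set 2 was brighter in emigrants under either treatment, without passing the test. Both emigrant arrays exceeded both thymocyte arrays under TCDD (log2 difference 2.28, SE 0.762, limma adjusted p = 0.584) and under oil (1.21, limma adjusted p = 0.742). The arrays of probe set 1 overlapped in both, with differences of 1.16 under TCDD and 0.44 under oil (limma adjusted p = 0.722 and 0.87). Those of probe set 3 separated under TCDD, with emigrants above thymocytes (0.93, limma adjusted p = 0.626), and overlapped under oil (0.30, limma adjusted p = 0.854). Ahrr differed by 1.60 under TCDD (limma adjusted p = 0.697) and by -0.27 under oil (limma adjusted p = 0.941), and Ahr probe set 1 by -0.51 and 0.42 (limma adjusted p = 0.859 and 0.833). None of the 10 passed in these comparisons, in which 0 probe sets had an adjusted p under 0.05 and 1686 (7.43%) under TCDD and 2029 (8.94%) under oil had an unadjusted limma p under 0.05. The emigrant arrays stood entirely above the thymocyte arrays for 4 of the 10 under TCDD and 2 under oil, against 20.6% and 20.0% of all probe sets, and entirely below for 1 and 0, against 15.1% and 18.8%.

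Other AhR targets did not all have their highest level in emigrants TCDD 2, where Ahrr and Tiparp probe sets 1 and 2 had theirs. Tiparp probe set 3 was highest in emigrants TCDD 1 (5.91). Cyp1b1, a cytochrome P450 gene induced by AhR, lay at 6.87 and 8.36 in TCDD emigrants, against 4.69 and 6.25 in oil emigrants, and at 8.46 and 9.59 in TCDD thymocytes, against 4.62 and 5.04 in oil thymocytes. Scin, the gene of scinderin, a protein that cuts actin filaments, lay at 9.97 and 6.30 in TCDD emigrants, against 4.88 and 4.87 in oil emigrants, and at 11.09 and 10.74 in TCDD thymocytes, against 7.88 and 7.37 in oil thymocytes. Ahrr and Tiparp probe sets 1 and 2 were thus higher in TCDD array 2 than in TCDD array 1 of each source, as was Cyp1b1, while Scin was lower there. Cyp1a1, the classical cytochrome P450 target, was highest in emigrants TCDD 2, at 5.59, against 3.78 to 4.22 in the other arrays, all of which were below their array medians. Cyp1a2 (4.26) and Aldh3a1 (3.41) were also highest in that array but below the median in every array, and these 3 genes were chosen after their values were seen. Cyp1b1 had the larger TCDD difference in thymocytes (2.15 in emigrants, against 4.20 in thymocytes), whereas those of Tiparp and Ahrr were larger in emigrants. The emigrant minus thymocyte contrast of the Cyp1b1 difference was -2.05 (95% interval -4.48 to 0.38, limma adjusted p = 1), and the order between genes was not tested. Averaged over both sources the differences were 3.17 for Cyp1b1 and 3.27 for Scin, each with a limma adjusted p of 1, and the Scin value was 4.19 without emigrants TCDD 2 (limma adjusted p = 0.0472, with a range of 0.0472 to 1 over the alternatives).

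**Figure D4:**
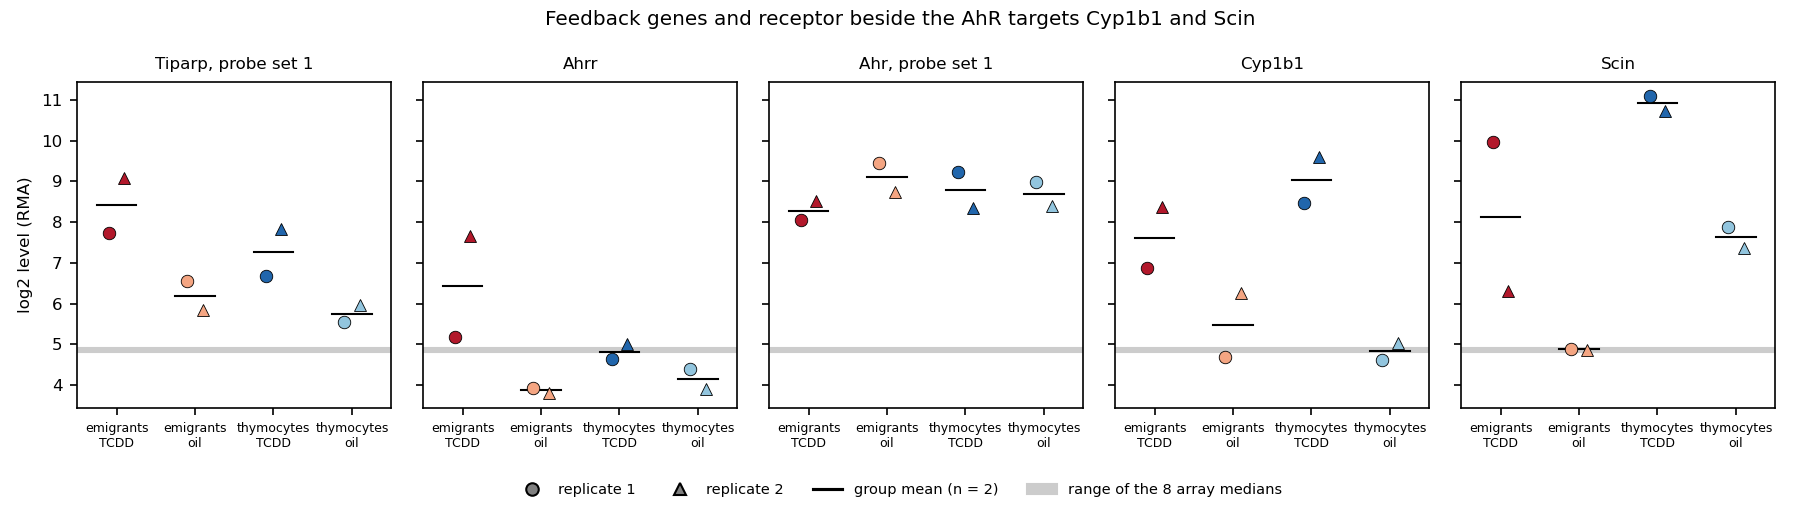
Log2 level (RMA) of Tiparp probe set 1, Ahrr, Ahr probe set 1, Cyp1b1 and Scin in each of the 8 arrays, by group, drawn as in the plot of all member levels. Ahrr was highest in emigrants TCDD 2 (7.65), where Scin, at 6.30, was below its level in emigrants TCDD 1 (9.97). Levels of different probe sets cannot be compared with each other.

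Other measures also differed among these arrays. The 3′ minus 5′ signal of actin, a sign of RNA degradation or amplification, was 4.68 and 3.79 in TCDD emigrants, against 3.92 and 3.34 in oil emigrants, and 4.31 and 3.06 in TCDD thymocytes, against 4.12 and 3.12 in oil thymocytes, so it was lower in array 2 of every group. The same measure of Gapdh was 4.97 and 5.32 in TCDD emigrants, against 4.81 and 4.91 in oil emigrants, and 5.90 and 4.78 in TCDD thymocytes, against 6.23 and 4.97 in oil thymocytes. It was higher in array 2 of both emigrant groups and lower in array 2 of both thymocyte groups, and both TCDD emigrant arrays lay above both oil emigrant arrays. The summed level of 9 macrophage markers was 60.16 to 67.36 in TCDD emigrants, against 54.11 to 64.91 in oil emigrants, and 52.43 to 56.87 in TCDD thymocytes, against 55.10 to 58.63 in oil thymocytes. That of 9 measured granulocyte markers was 51.29 to 75.24 in TCDD emigrants, against 54.01 to 56.08 in oil emigrants, and 56.68 to 68.46 in TCDD thymocytes, against 63.12 to 69.50 in oil thymocytes. Emigrants TCDD 2, where Ahrr and Tiparp probe sets 1 and 2 were highest, had the lowest granulocyte sum of the 8 arrays and the highest macrophage sum. For 7 measured NK cell markers it was 45.80 to 53.66 in TCDD emigrants, against 54.05 to 55.84 in oil emigrants, and 45.98 to 50.65 in TCDD thymocytes, against 45.25 to 47.02 in oil thymocytes. For 6 measured B cell markers it was 25.78 to 27.50 in TCDD emigrants, against 26.01 to 26.54 in oil emigrants, with 0 to 2 of them above the median of any emigrant array. In thymocytes it was 29.85 to 33.92 under TCDD, against 29.92 to 31.91 under oil, with 3 of the 6 above the median. For 6 measured erythroid markers it was 33.43 to 39.30 in TCDD emigrants, with the highest value in TCDD 1, against 31.19 to 35.98 in oil emigrants, and 30.45 to 31.84 in TCDD thymocytes, against 30.77 to 31.29 in oil thymocytes. The sum of 10 measured T cell markers was 66.58 to 69.94 in TCDD emigrants, against 67.32 to 69.99 in oil emigrants. In thymocytes it was 68.32 to 72.77 under TCDD, against 67.77 to 71.49 under oil. It overlapped between the treatments in both sources and was lowest in emigrants TCDD 2. The part of these measures in the Ahr, Ahrr and Tiparp values was not tested.

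Beside Ahrr and Tiparp, 9 of 12 listed AhR target genes were measured. None passed at an adjusted threshold over all probe sets, and 3 had an unadjusted limma p under 0.05 in the average, all higher after TCDD, against 0.599% of all probe sets: Cyp1b1, Scin and Nqo1, a quinone reductase gene (averaged difference 0.47). Selenbp1, which encodes a selenium-binding protein, was next at 0.34. The median difference of the 9 was 0.48 in emigrants and 0.06 in thymocytes, against 0.03 and -0.01 over all genes. With bright probe sets only, the median of the targets kept was 1.31 in emigrants and 1.88 in thymocytes. The order of the sources by this median thus reversed when dim genes were left out.

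Chaperone genes had values on both sides of 0. Of 13 measured members of the HSP90 chaperone list, 0 had an adjusted p under 0.05 and 9 had a lower mean after TCDD in the average (median -0.21, against 0.01 over all genes). Those with the smallest p were Fkbp4 (-0.61, limma adjusted p = 1), the 1 gene of the list under an unadjusted 0.05, and Fkbp5 (-0.41), which encode immunophilin cochaperones of HSP90, followed by Hspa8 (-0.25), a constitutive HSP70 chaperone gene, and Stip1 (-0.28), whose product links HSP70 to HSP90. In thymocytes 6 of the 13 stood entirely lower after TCDD, against 11.0% of all probe sets, and in emigrants 0 did, against 10.9%. The difference between the sources was not tested for the list. The 4 genes with a higher mean in the average were Hsp90b1, Sugt1, Ppp5c and Stub1. Hsp90b1, the HSP90 gene of the endoplasmic reticulum, had the highest difference of the list (0.71, limma adjusted p = 1), with levels between 5.02 and 9.36 over the arrays, and the other 3 were at 0.09, 0.05 and 0.05.

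Other genes of the pathway showed small differences. Among 18 measured genes of the bHLH-PAS family and the coactivators that bind them, averaged differences ran from -0.11 to 0.33 with a median of 0.04, with the smallest p for Ncoa3 (0.13), a nuclear receptor coactivator gene, Per2 (0.33) and Clock (0.20), of the circadian clock, and Arntl2 (-0.11), a paralogue of the clock factor gene Arntl. Among 13 coregulators and degradation factors the median was -0.02, with Nrip1 (0.58), a corepressor gene, Hdac1 (-0.26), a histone deacetylase gene, Med1 (-0.23), of the Mediator complex, and Ddb1 (-0.12), of the CUL4 ubiquitin ligase, having the smallest p. Among 12 other PARP family genes, relatives of Tiparp, the median was -0.01, with Parp14 (0.19), Tnks2 (0.29), Parp2 (-0.21) and Parp6 (-0.12) having the smallest p. None of these genes had an unadjusted p under 0.05 in the average, and the Tiparp difference of 1.86 lay outside the PARP family range of -0.21 to 0.29.

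The genes with the pattern most like Tiparp, Ahrr and Ahr, each by probe set 1, over the 8 arrays were ranked by Pearson r among 5754 genes. Tiparp was closest to Kctd2 (r = 0.922), Gm5617 (0.91), Fank1 (0.904), Ggt5 (0.9) and Vps39 (0.896). Ahrr was closest to T2 (0.96), Utf1 (0.959), Gja1 (0.945), Gm5617 (0.935) and Gp1bb (0.935). Of these Gja1, the connexin gene, lay at 9.63 in emigrants TCDD 2 and between 5.20 and 6.34 in the other arrays, so its likeness rested on 1 array. T2 lay between 5.92 and 6.36 in all arrays and Utf1 between 5.88 and 6.13. Every gene named as closest to Ahrr or Tiparp was highest in emigrants TCDD 2, as were Ahrr and Tiparp probe set 1. Ahr was closest to Dok4 (0.888), Plekha2 (0.884), Slc2a5 (0.865), B230219D22Rik (0.863) and Tmtc4 (0.848). Ahrr and Tiparp had an r of 0.89 with each other, and Ahr had -0.35 with Ahrr and -0.44 with Tiparp. These points share their arrays and the ranking was over many genes.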

How the data were processed

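The authors deposited log2 expression values of 22690 probe sets, made with RMA per the submitters' processing notes, which give no version. The RNA came from sorted cells and was amplified before hybridisation, per the labels' protocols. RMA makes the distributions of arrays alike, so a shift common to most genes would not be seen. Groups follow the sample titles.

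Probe sets took their gene from the array platform's annotation, brought up to date by gene identifier with a RefSeq table of GRCm38.p6 (20393 with 1 symbol, 691 with several, 1606 unnamed here). All probe sets were tested in limma 3.58.1 under R 4.3.3 (a mean per group, eBayes, two-sided, 4 residual degrees of freedom) and adjusted by Benjamini-Hochberg over the whole table, at a threshold of 0.05. Each probe set had 1 estimate of the spread, shared by the 4 groups in every comparison. The code was tested on simulated data. Lists used the brightest probe set of a gene and left out the genes described. Each list named up to 4 genes with the smallest p in the averaged TCDD comparison. Likeness candidates were genes whose highest array value passed the array median by 1 log2 unit. The members, lists and tests were chosen with earlier results of these data known.

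Alternatives were repeated quantile normalization, median centring, bright probe sets only, 1 probe set or the mean of the probe sets of a gene, a trended robust prior, a block for the replicate number (over all groups, and for TCDD differences within each cell source), a fit of the compared groups alone, emigrants oil 1 taken as its Treatment field has it, and leaving out each array. Leaving out both emigrant arrays numbered 2 was chosen after seeing the data.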

Additional observations from a re-analysis of the deposited data

How the results depend on the processing

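With 2 arrays a group, the data limit each value to wide intervals, and no detection calls were used for dim probe sets. No TCDD difference of Ahr, Arnt, Ahrr, Tiparp or the probe sets shared by Ptges3 and Ptges3-ps passed the adjusted threshold under any alternative tried. The averaged TCDD differences of Ahrr and Tiparp probe sets 1 and 2 stayed above 0 without any 1 array, at 1.00 to 2.23, 1.52 to 2.19 and 1.55 to 2.66.

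Replicate numbers are shared by the groups, and the labels do not state whether same-numbered samples are pairs. Deviations of same-numbered arrays correlated at 0.73 in thymocytes and 0.52 in emigrants, over 2 pairs each, and at -0.15 to 0.12 across the sources. In thymocytes Spearman's rho was 0.985 and 0.987 between same-numbered arrays, against 0.958 (oil) and 0.965 (TCDD) within a treatment. In emigrants it was 0.989 and 0.969, against 0.966 (oil) and 0.951 (TCDD). The main fit has no term for the replicate number. With the replicate block within each cell source the count of probe sets past the threshold was 1 in thymocytes and 1 in the average, against 0 in each without it, and it was Cyp1b1 in both (4.20, limma adjusted p = 0.0483, and 3.17, limma adjusted p = 0.034, with ranges up to 1 over the alternatives). That block cannot estimate a difference between the cell sources and was not run for those comparisons.

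Counting emigrants oil 1 as TCDD gave 1 call in emigrants, 1 for the contrast of the TCDD differences, 16 for emigrants minus thymocytes under TCDD and 1 under oil. It turned the averaged differences of Ahr probe set 1, Hdac1 and Parp6 to 0.01, 0.04 and 0.01. The trended robust prior gave 1 call for the sources under TCDD, and the mean of the probe sets of a gene 1 under oil. With bright probe sets only, the median TCDD difference of the AhR targets kept was 1.31 in emigrants, 1.88 in thymocytes and 1.82 in the average. With all measured targets it was 0.48, 0.06 and 0.33. Averaging probe sets turned Arnt in thymocytes to 0.03, and quantile normalization and median centring turned Arnt probe set 2 in emigrants to -0.01 and -0.01. Without both emigrant arrays numbered 2, Arnt probe set 1 was -0.01 in emigrants and -0.02 in the average, Arnt probe set 2 was -0.09 and -0.01, Tiparp probe set 1 was -0.32 for the contrast of the TCDD differences, and the probe sets shared by Ptges3 and Ptges3-ps were 0.03 and 0.05 in emigrants. The cause of these changes was not tested.

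Leaving out 1 array gave 0 to 1 calls in the average (1 without emigrants TCDD 2) and 0 to 13 for the sources under TCDD (13 without emigrants TCDD 1). In thymocytes it moved the TCDD difference across 0 for Ahr probe set 1 (-0.35 to 0.55), Ahr probe set 2 (-0.14 to 0.26), Arnt probe set 1 (-0.31 to 0.26), Tiparp probe set 3 (-0.18 to 0.66), probe set 1 shared by Ptges3 and Ptges3-ps (-0.52 to 0.00) and Selenbp1 (-0.12 to 0.28). In emigrants it did so for Arnt probe set 2 (-0.09 to 0.11) and for both shared probe sets (-0.90 to 0.25 and -1.12 to 0.33). In the average it did so for Ahr probe set 2 (-0.02 to 0.18), Arnt probe set 2 (-0.01 to 0.09), shared probe set 2 (-0.70 to 0.03), Clock (-0.03 to 0.43), Nrip1 (-0.19 to 1.35), Med1 (-0.50 to 0.05) and Ddb1 (-0.25 to 0.01). It also did so for Tiparp probe set 2 in the contrast of the TCDD differences (-0.04 to 2.18) and for Tiparp probe set 3 between the sources under oil (-0.12 to 0.72).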
